A study of Ambystoma mexicanum with 44 samples.

Results

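A set of 51 axolotl genes, each read by 1 probe set, was low on day 1 after injury in the limb and in the flank. By day 7 the genes were back near their starting level or above it. The genes were picked by their group means alone. In the innervated limb, the denervated limb and the flank wound, the day 1 mean had to lie at least 1 log2 unit below day 0, a 2-fold loss or more, and the day 7 mean no more than 0.4 below day 0. No upper limit was set for day 7. These 51 were found among 10951 probe sets with a gene symbol, which cover 8639 genes, and another 51 probe sets without a symbol met the same limits. The dip at day 1 and the return by day 7 are therefore given by the choice and are described without a test. The arrays of day 3 took no part in the choice. They show how far each gene had returned at a time between those days, and whether the limb and the flank had returned alike.

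The samples were epidermis of aquatic axolotls (Ambystoma mexicanum), with the cells that stuck to it. Flank wounds were made with a biopsy punch, and forelimbs were amputated just above the elbow with the humerus trimmed flush. In the denervated limbs the brachial nerves into the limb had been cut. Axolotl limbs regrow after amputation only while nerves supply the stump, and a flank wound closes without forming a new structure. The flank wound and the innervated limb were each sampled uninjured (day 0) and on days 1, 3 and 7, and the denervated limb on days 1, 3 and 7. Each of the 11 groups held 4 biological replicates, with 2 harvested samples of an animal pooled, which makes 44 arrays. No strain, age or sex is given in the labels. The 4 uninjured innervated limb arrays served as day 0 of both limb series, whose changes therefore share an error, and cutting the nerves cannot be told apart from any difference in limbs before injury.

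Arrays carry no read depth. The deposited values are log2 expression between 2.41 and 15.04, and the number of arrays limits the precision: the median standard error (SE) of a difference of 2 groups was 0.12 log2 units. The tissue label was checked against markers of keratinocytes, the main cells of epidermis. Of 21 such markers 14 were measured, and KRT8 read 13.66 to 14.37, EPCAM 12.43 to 13.88 and DSP 12.80 to 13.68 over the 44 arrays. Other markers were lower, some over a wide range: ITGB4 read 4.81 to 5.86, LAMB3 5.69 to 6.92, PKP3 5.34 to 7.29, TP63 6.15 to 8.07, PKP1 5.90 to 8.29 and ITGA6 5.0 to 10.28. Markers of other cells moved as well. The mean level of 17 measured myeloid markers (of 26 listed) on each array was 7.63 to 8.11 on day 0 and 8.14 to 8.99 on day 1. That of 11 measured Merkel cell markers (of 16) was 3.94 to 4.49 and then 4.82 to 5.16, and that of 5 erythrocyte markers (of 14) 5.10 to 5.74 and then 5.48 to 7.23. Lower on day 1 were 3 measured mucous and secretory cell markers (of 20), at 9.84 to 10.36 and then 8.66 to 9.61, and 7 ionocyte markers (of 21), at 6.76 to 6.93 and then 6.43 to 6.65. That of 7 measured pigment cell markers (of 20) was 6.24 to 6.45 on day 0 and 5.50 to 5.92 on day 1, and that of 14 keratinocyte markers was 9.78 to 10.20 on day 0 and 10.36 to 10.82 on day 1. The mean level of 19 measured skeletal muscle markers (of 27) was 5.54 to 8.31 in uninjured limb and 7.22 to 10.44 in uninjured flank. On day 1 it was 6.78 to 11.22 in the innervated limb, 7.68 to 9.84 in the denervated limb and 6.86 to 8.75 in the flank. The part of these markers' cells in the dip was not tested. In tissue of many cells, fewer cells of a type and less RNA per cell cannot be told apart.

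The 51 genes were grouped by known role. In macroautophagy, a cell encloses part of its own contents in a membrane sac, the autophagosome, and delivers it to the lysosome. The kinase complex mTORC1, which sits on the lysosome and reads amino acid supply there, restrains autophagy when nutrients are plentiful and promotes protein synthesis and growth. A further set of proteins detects stalled DNA replication and repairs the break or gap. Of the 51 genes, 6 act in autophagosome formation, 6 in nutrient sensing at the lysosome, 5 in vesicle traffic or lysosomal proteolysis and 8 in DNA replication and repair. Another 8 act in chromatin and transcription, 4 in RNA processing and decay, 4 in ubiquitin or SUMO conjugation and 5 in mitochondria and metabolism. The remaining 5 are 3 secreted or surface proteins and 2 others. The roles were assigned after the genes were known.

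Averaged over all 51 genes, the level per array was 7.70 to 8.20 before injury, 6.35 to 6.68 on day 1, 7.69 to 7.96 on day 3 and 7.74 to 8.21 on day 7. No day 1 array came near an array of any other day. The median change on day 1 was -1.34 in the innervated limb, -1.30 in the denervated limb and -1.43 in the flank, and over single genes it ran from -1 to -2.11. The median change on day 7 was -0.08, 0.02 and 0.10. On that day 5, 8 and 10 of the 51 stood more than 0.4 above day 0, with highest changes of 0.79, 1.10 and 1.06. By the choice, all 51 genes were called lower on day 1 in every series, where 36% of all 20035 probe sets were called in either direction in the innervated limb, 34.2% in the denervated limb and 41.3% in the flank. All 51 also lay in the upper part of the array's range, between the percentiles 50.6 and 97.4 of mean level over probe sets. The genes nearest the day 1 limit were SRBD1 and RB1CC1 at -1 inside it and FXR1 at -0.995 and COG2 at -0.99 outside it. Nearest the day 7 limit were CDC7 at -0.385 inside and HTATIP2 at -0.4025 outside. Leaving out each of the 32 arrays of days 0, 1 and 7 in turn kept 30 of the 51 genes every time.

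**Figure D1:**
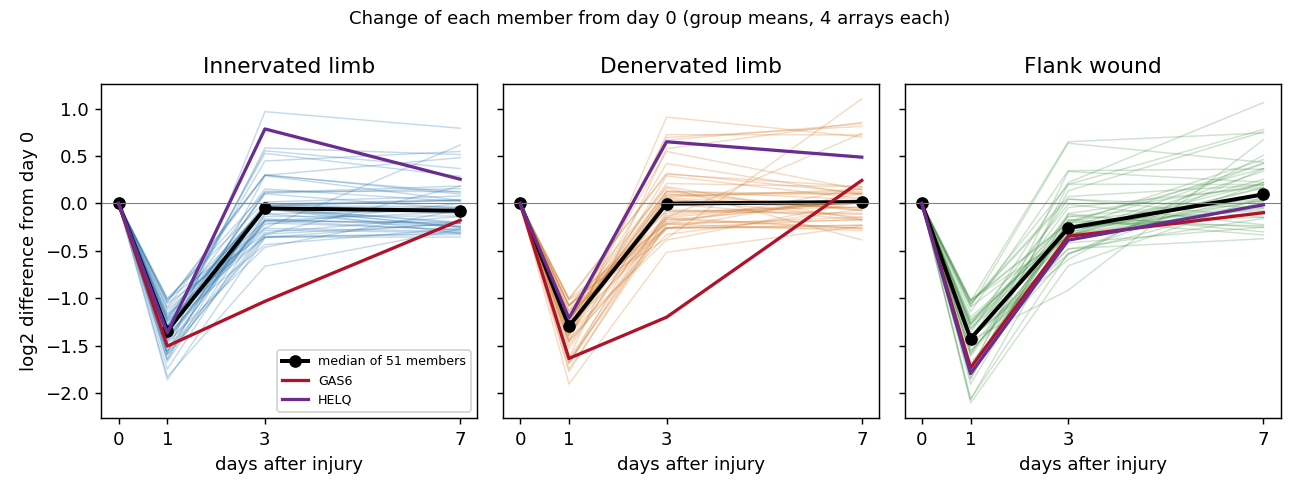
Log2 difference of group means from day 0 (vertical axis) against days after injury (horizontal axis) for each of the 51 genes, with the innervated limb, the denervated limb (against uninjured innervated limb) and the flank wound in separate panels. Thin lines are genes and the black line is their median, which on day 3 stood at -0.05, 0.00 and -0.26. GAS6 stays low in both limb panels on day 3, and HELQ stands above day 0 there but not in the flank.

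By day 3 most of the 51 genes were back. In the innervated limb 41 were within 0.4 log2 units of day 0, 4 were lower and 6 higher. In the denervated limb the numbers were 41, 2 and 8, and in the flank they were 40, 9 and 2. The median gene had regained 95.6% of its day 1 loss in the innervated limb, 99.8% in the denervated limb and 81.7% in the flank. These percentages rest on day 0 and day 1 arrays that entered the choice, and both limb series share day 0. Their contrast is a description. In all 3 series 33 of the 51 were within 0.4 of day 0. For comparison, 75.3% to 76.1% of all probe sets lay within 0.4 of their day 0 level on day 3. Every test of a single gene on day 3 against day 0 below uses day 0 arrays that entered the choice. Such tests are descriptions.

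None of the 51 genes was called between innervated and denervated limbs on day 3 by limma. Only 0.265% of all probe sets were called, so a count of 0 among 51 cannot settle whether the set differed. An unadjusted p under 0.05 by limma was found for 4, SESN3, SRBD1, WDR47 and RABEP1, all lower in the innervated limb. That share over all probe sets is not given here. The difference, innervated minus denervated, ran from -0.37 to 0.19 with a median of -0.07. For 40 of the 51 genes the 95% interval of the difference lay within 0.5 log2 units of 0. SESN3 had the lowest value, at -0.37 ± 0.18 (SE, n = 4 and 4, adjusted p = 0.742 by limma). On day 7 none was called either, against 1.7% of all probe sets. An unadjusted p under 0.05 by limma was found for 11, again without a like share over all probe sets. The count of genes called on day 7 was 3 after quantile normalization, 5 with array weights and 2 without the dimmest 25% of probe sets. It was 2 without replicate 4 of denervated limb day 7, and 1 without replicate 2 or 4 of innervated limb day 7. The largest day 7 difference was -0.83 for TMPRSS2 (adjusted p = 0.245 by limma). The limits of the choice bear on the day 7 arrays, so this is a description.

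The limb and the flank differed in single genes. Between innervated limb and flank on day 3, 2 of the 51 genes were called, GAS6 and HELQ, against 6.24% of all probe sets. Between denervated limb and flank 3 were called, GAS6, HELQ and INTS7, against 6.33%. Both shares of the 51, 3.92% and 5.88%, were below the share of all probe sets. An unadjusted p under 0.05 by limma was found for 7 and 12 of the 51, and that share over all probe sets is not given here. So few calls cannot settle whether the set as a group differed.

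GAS6, a secreted ligand of the receptors TYRO3, AXL and MERTK that helps phagocytes take up dying cells, was the slowest gene in the limb. Its log2 levels on the 4 arrays of each group were 8.59, 8.44, 8.80 and 8.75 in uninjured limb, and 8.98, 8.52, 8.46 and 8.70 in uninjured flank. On day 1 every array was between 6.71 and 7.43. On day 3 the innervated limb arrays read 7.39, 7.82, 7.75 and 7.49, the denervated limb arrays 7.31, 7.28, 7.74 and 7.45, and the flank arrays 8.66, 8.14, 8.30 and 8.17. Every flank array of day 3 was thus above every limb array of that day. The innervated limb was lower than the flank by 1.63-fold (-0.71 ± 0.13, SE, n = 4 and 4, adjusted p = 0.000601 by limma), and the denervated limb by 1.83-fold (-0.87 ± 0.13, adjusted p = 3.36e-05). By day 7 all 12 arrays read between 8.34 and 8.96, a return that the choice of genes required.

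GAS6 had similar levels before injury, at a mean of 8.65 ± 0.17 in the limb and 8.67 ± 0.23 in the flank (SD, n = 4). The change from day 0 to day 3 was -1.03 in the innervated limb, -1.20 in the denervated limb and -0.35 in the flank. The day 0 arrays also entered the choice, here and in the same tests of HELQ and SESN3 below. The difference in that change was -0.69 ± 0.19 for innervated limb against flank (adjusted p = 0.0365 by limma) and -0.85 ± 0.19 for denervated limb against flank (adjusted p = 0.00585). The first of these lost its call when any 1 of 9 arrays was left out, with adjusted p-values from 0.0534 to 0.1. These were replicates 2, 3 and 4 of flank day 0, 1 and 3 of flank day 3, 3 and 4 of innervated limb day 0, and 1 and 4 of innervated limb day 3. In a fit on the compared groups alone the first was also lost (adjusted p = 0.0918 by limma). The second kept its call whichever array was left out.

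HELQ, a DNA helicase that acts at stalled replication forks, went the other way. On day 1 all its arrays read between 5.57 and 6.14. On day 3 the innervated limb read 8.13, 7.84, 7.79 and 7.63, the denervated limb 7.86, 7.82, 7.72 and 7.45, and the flank 7.35, 7.51, 7.20 and 7.01. The innervated limb arrays were all above the flank arrays, while the lowest denervated array lay within the flank's range. Innervated limb exceeded flank by 1.49-fold (0.58 ± 0.14, SE, n = 4 and 4, adjusted p = 0.00742 by limma). Denervated limb exceeded flank by 1.36-fold (0.45 ± 0.14, adjusted p = 0.0481), a call that was lost without replicate 1, 2 or 3 of denervated limb day 3 or replicate 1, 3 or 4 of flank day 3, at adjusted p-values from 0.07 to 0.178. It was also lost in a fit on these 2 groups alone (adjusted p = 0.101 by limma), with arrays centred on their medians (0.0661) and after quantile normalization (0.102).

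The order of the sites was opposite before injury. Uninjured limb read 6.83, 6.87, 7.35 and 7.20 for HELQ and uninjured flank 7.83, 7.49, 7.89 and 7.41, with no overlap (limb minus flank -0.59 ± 0.14, adjusted p = 0.0083 by limma). Fitted on these 2 groups alone, the call was lost (adjusted p = 0.141). Of the 51 genes, 2 were called at day 0 between limb and flank, HELQ and WDR47, against 4.35% of all probe sets. The WDR47 difference, -0.43 ± 0.12 (adjusted p = 0.0318), was lost without replicate 1 or 4 of flank day 0 (adjusted p = 0.144 and 0.114 by limma) or replicate 2 or 3 of innervated limb day 0 (adjusted p = 0.129 and 0.0778), and also on the 2 groups alone (0.208) and after quantile normalization (0.099). Measured from its own day 0, HELQ stood 0.79 above it in the innervated limb on day 3, 0.65 above it in the denervated limb, and 0.39 lower in the flank (-0.39). The differences of these changes, 1.17 ± 0.20 for innervated limb against flank (adjusted p = 0.000311 by limma) and 1.04 ± 0.20 for denervated limb against flank (adjusted p = 0.00131), were kept whichever array was left out.

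INTS7, a subunit of the Integrator complex that processes small nuclear RNAs, was called between denervated limb (8.66, 8.48, 8.55 and 8.40 on day 3) and flank (8.35, 8.12, 8.23 and 8.07). The groups did not overlap, but the difference was small (0.33 ± 0.10, SE, n = 4 and 4, adjusted p = 0.0482 by limma). It lost its call without replicate 1, 2 or 3 of denervated limb day 3 or replicate 2, 3 or 4 of flank day 3, at adjusted p-values from 0.0684 to 0.171. It was also lost in a fit on these 2 groups alone (adjusted p = 0.0841 by limma), with arrays centred on their medians (0.0732) and after quantile normalization (0.062). The innervated limb arrays, 8.42, 8.35, 8.42 and 8.23, overlapped both groups.

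In the changes from day 0 to day 3, 2 of the 51 genes (GAS6, HELQ) differed between innervated limb and flank, against 3.15% of all probe sets, and 3 (GAS6, HELQ, SESN3) between denervated limb and flank, against 3.95%. Since the day 0 arrays entered the choice, these counts are descriptions. SESN3 encodes a sestrin, a stress-induced inhibitor of mTORC1. It read 9.0, 9.07, 9.60 and 9.79 in uninjured limb and 10.13, 9.83, 10.21 and 9.96 in the denervated limb on day 3, with no overlap. In the flank it read 10.40, 9.80, 9.61 and 9.92 before injury and 9.72, 9.62, 10.03 and 9.32 on day 3, which overlapped. The difference of the changes was 0.93 ± 0.26 (SE, n = 4 in each of 4 groups, adjusted p = 0.031 by limma). It was lost without replicate 1 or 3 of denervated limb day 3, 1 or 4 of flank day 0, 2 or 4 of flank day 3, or 1 or 2 of innervated limb day 0, at adjusted p-values from 0.0531 to 0.0875, and in a fit on the compared groups alone (adjusted p = 0.106 by limma). On day 3 itself SESN3 was not called between denervated limb and flank (0.36 ± 0.18, adjusted p = 0.28).

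Other cell types differed between the sites on day 3. The mean level of 22 measured fibroblast and matrix markers (of 23) on each array was 8.03 to 8.34 in the flank, 8.37 to 9.05 in the innervated limb and 8.49 to 9.07 in the denervated limb. That of 19 skeletal muscle markers (of 27) was 6.40 to 7.69 in the flank, 5.37 to 6.15 in the innervated limb and 5.11 to 10.78 in the denervated limb, where replicate 3 was the high array. That of the 17 myeloid markers was 8.79 to 9.23, 8.37 to 8.91 and 8.53 to 9.27. Their part in the differences of GAS6, HELQ, INTS7 and SESN3 was not tested. Of the 3 arrays of highest muscle signal in the series, replicate 3 of denervated limb day 3 is the 1 that enters these comparisons. The flank day 0 arrays, at 7.22 to 10.44 for the muscle markers, were all kept, and the changes from day 0 rest on them. Without the 3 arrays, GAS6 kept its calls between limb and flank and HELQ its call between innervated limb and flank, whereas HELQ and INTS7 between denervated limb and flank lost theirs (adjusted p = 0.103 and 0.108 by limma). The difference of changes of SESN3 lost its call too (adjusted p = 0.0724).

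**Figure D2:**
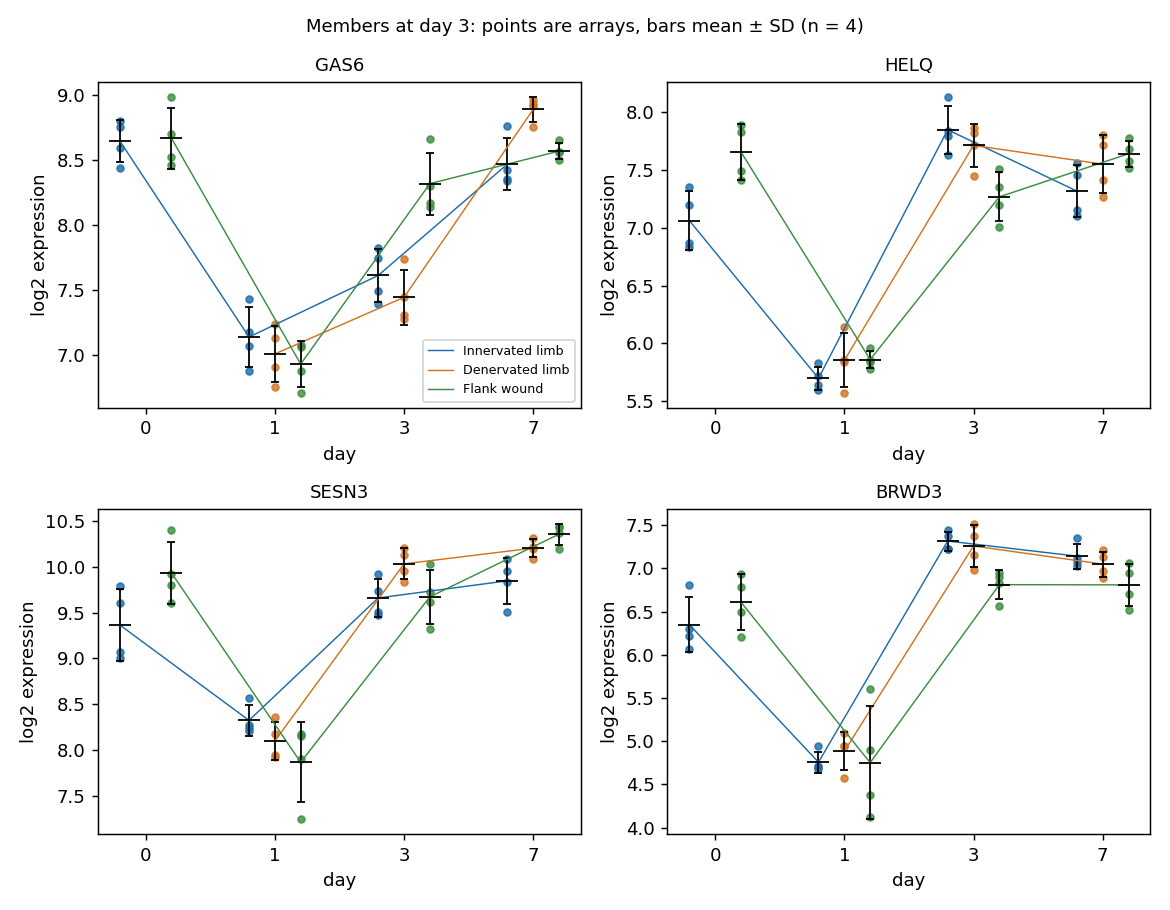
Log2 expression (vertical axis) of GAS6, HELQ, SESN3 and BRWD3 against day (horizontal axis). Points are single arrays, bars are the mean ± SD of 4 arrays, and lines join the means of a series, with the denervated limb starting at day 1. On day 3 the 8 limb arrays of GAS6 lie at 7.28 to 7.82 and its 4 flank arrays at 8.14 to 8.66.

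The autophagosome genes returned in different degrees. All 6 were down on day 1 by selection, with median changes of -1.49, -1.34 and -1.27 in innervated limb, denervated limb and flank, and on day 3 their medians were -0.24, -0.20 and -0.34. RB1CC1 (FIP200), a scaffold of the ULK1 kinase complex that starts an autophagosome, read 8.64 to 9.04 over the day 1 arrays. BECN1 (Beclin 1) and UVRAG are subunits of class III phosphatidylinositol 3-kinase complexes, which mark membranes with a lipid. WDR45 (WIPI4) binds that lipid, GABARAPL2 is an ATG8-family protein attached to the membrane, and C9orf72 is part of a complex that regulates autophagy and lysosomes. RB1CC1 was the 1 gene of the 6 above day 0 on day 3 in every series, by 0.30, 0.31 and 0.07, and the other 5 were below day 0 in every series.

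UVRAG had the lowest mean change on day 3 after GAS6. It read 7.62, 7.54, 8.23 and 8.55 in uninjured limb and 8.0, 7.81, 7.87 and 8.20 in uninjured flank, and on day 1 no array exceeded 6.56. On day 3 it read 7.61, 7.25, 7.23 and 7.20 in the innervated limb, 7.81, 7.38, 7.39 and 7.30 in the denervated limb and 7.25, 7.33, 7.44 and 7.23 in the flank. The flank arrays of day 3 were all below those of day 0, whereas the limb arrays overlapped their day 0 group, which itself spread over 1 log2 unit. The changes were -0.66 ± 0.15 (SE, n = 4 and 4, adjusted p = 0.00101 by limma), -0.52 ± 0.15 (0.00996) and -0.66 ± 0.15 (0.00113). They are descriptions, since the day 0 arrays entered the choice. The denervated call was lost without replicate 3 (adjusted p = 0.0518) or 4 (0.105) of innervated limb day 0. In fits on the compared groups alone both limb calls were lost (adjusted p = 0.0607 and 0.162 by limma). UVRAG alone among the 51 was more than 0.4 below day 0 in all 3 series.

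C9orf72 was also incomplete on day 3. Its uninjured arrays read 9.14, 8.90, 9.19 and 9.22 in the limb and 9.29, 9.09, 8.82 and 8.97 in the flank. On day 3 they read 8.81, 8.80, 8.74 and 8.66 in the innervated limb and 8.76, 8.69, 8.76 and 8.61 in the flank, with no overlap with day 0 at either site. The changes were -0.36 ± 0.09 (SE, n = 4 and 4, adjusted p = 0.00222 by limma) and -0.34 ± 0.09 (0.00414), and both calls were kept whichever array was left out. Both are descriptions, since the day 0 arrays entered the choice. In the denervated limb the arrays, 8.98, 8.76, 8.81 and 8.84, overlapped day 0 (-0.27, adjusted p = 0.0251). That call was lost without replicate 2 or 3 of denervated limb day 3 or replicate 1, 3 or 4 of innervated limb day 0, at adjusted p-values from 0.0537 to 0.0858, and in a fit on the compared groups alone (0.0933).

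BECN1 was further below day 0 on day 1 than C9orf72, both being low by the choice, and had nearly returned on day 3. Its 12 arrays of day 1 read between 5.38 and 6.97, against 7.91 to 8.43 over the 8 uninjured arrays. On day 3 it read 8.04, 8.02, 8.23 and 7.77 in the innervated limb, 8.0, 8.0, 8.13 and 8.20 in the denervated limb and 7.72, 7.76, 7.98 and 7.58 in the flank. The limb arrays overlapped day 0, the flank arrays did not, and the flank change of -0.34 ± 0.18 did not pass the test (adjusted p = 0.181 by limma). RB1CC1, on day 3 at 10.24, 10.16, 10.24 and 10.04 in the innervated limb, had passed its uninjured level of 9.83, 9.72, 9.96 and 9.98 without overlap (0.30 ± 0.09, adjusted p = 0.0109). That call was lost without replicate 2 of innervated limb day 0 (adjusted p = 0.0572) or with arrays centred on their medians (0.0537). In the denervated limb, where the arrays read 10.15, 10.33, 9.93 and 10.31 and overlapped day 0, the change of 0.31 ± 0.09 (adjusted p = 0.00801) was kept whichever array was left out but lost in a fit on the compared groups alone (adjusted p = 0.0916 by limma).

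**Figure D3:**
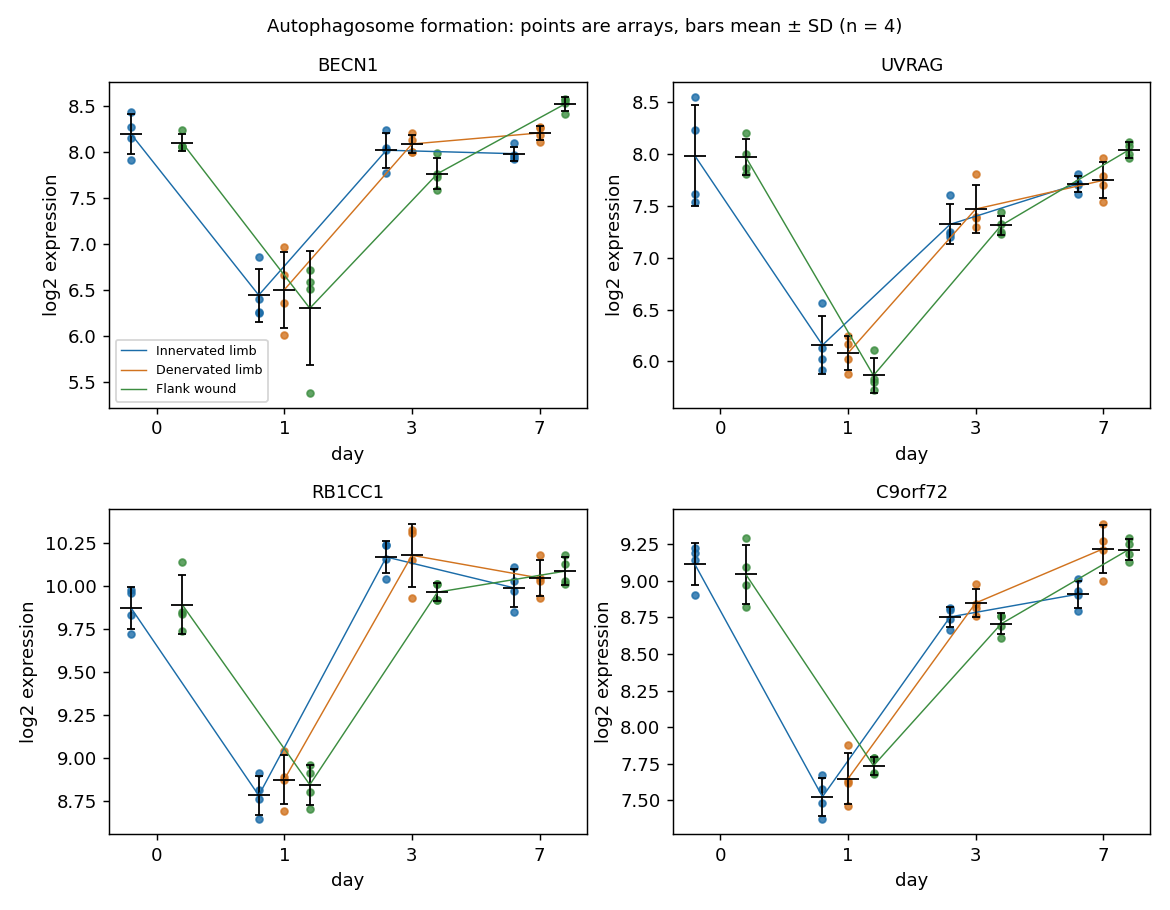
Log2 expression (vertical axis) of the autophagosome genes BECN1, UVRAG, RB1CC1 and C9orf72 against day (horizontal axis). Points are single arrays, bars are the mean ± SD of 4 arrays and lines join the means of a series. UVRAG on day 3 lies at 7.20 to 7.81 over the 12 arrays, and RB1CC1 at 9.92 to 10.33.

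The rest of the autophagosome pathway was read from a list of 53 genes, made after the 51 were known, of which 38 were measured and 6 are among the 51. On day 1, 19 of the 38 fell and 2 rose in the innervated limb, 19 fell and 1 rose in the denervated limb, and 16 fell and 2 rose in the flank. Among the 32 others, 13, 13 and 10 fell and 2, 1 and 2 rose. Of all probe sets 36%, 34.2% and 41.3% were called in either direction. The share of all probe sets that fell is not given here, so the falls alone have no like share beside them. The medians of these 32 were -0.27, -0.29 and -0.08, beside -0.03, -0.02 and 0.05 over all probe sets. The pathway did not move as a block: PIK3C3, the catalytic subunit of the complex that holds BECN1 and UVRAG, showed differences of 0.00, -0.12 and -0.14 (adjusted p = 0.994, 0.703 and 0.593 by limma). PIK3C3 was chosen for this after its values were seen. ATG5, needed to attach ATG8 proteins to the membrane and also chosen so, fell (-0.78, -0.78 and -0.62; adjusted p = 4.53e-06, 4.8e-06 and 0.000117).

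Among the 6 genes of nutrient sensing at the lysosome, the mTORC1 inhibitors TSC2 and SESN3 dipped on day 1 together with the activator SLC38A9, by selection. TSC2 (tuberin) switches off RHEB, the direct activator of mTORC1, and SESN3 restrains the complex in stress. SLC38A9 is the arginine sensor of the lysosomal membrane that activates mTORC1, WDR59 is a subunit of the GATOR2 complex, FLCN (folliculin) acts on the Rag GTPases that recruit mTORC1, and GPR137B is a lysosomal membrane protein. Their day 1 medians were -1.23, -1.27 and -1.28, and their day 3 medians -0.15, -0.08 and -0.28. Over single genes the mean change on day 3 ran from -0.27 for TSC2 to 0.48 for SLC38A9.

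SLC38A9 overshot in the limb. It read 8.88, 8.91, 9.49 and 9.11 in uninjured limb, and on day 3 10.15, 9.84, 9.65 and 9.53 in the denervated limb, all above day 0 (0.70 ± 0.17, SE, n = 4 and 4, adjusted p = 0.00177 by limma, kept whichever array was left out). The innervated limb arrays, 9.49, 9.41, 10.02 and 9.69, overlapped day 0. Their change of 0.56 ± 0.17 (adjusted p = 0.0133) lost its call without replicate 1 (adjusted p = 0.0523 by limma) or 2 (0.0506) of innervated limb day 0 or replicate 3 of day 3 (0.0802). In the flank 9.49, 9.35, 9.15 and 9.27 became 9.55, 9.45, 9.87 and 9.19, which did not pass the test (0.20 ± 0.17, adjusted p = 0.432). The differences of change against the flank, 0.355 innervated and 0.495 denervated, were not called. A second, dimmer SLC38A9 probe set, with a mean of 4.95, did not dip on day 1 (-0.08, 0.14 and -0.11). On day 3 it stood at 0.36, 0.315 and 0.34 in innervated limb, denervated limb and flank. By day 7 SLC38A9 stood 0.37 above day 0 in the innervated limb, 0.81 in the denervated limb and 0.78 in the flank. SESN3 also overshot in the denervated limb (0.67 ± 0.18, adjusted p = 0.00462, kept whichever array was left out).

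TSC2 showed no overshoot. TSC2 lay close to the day 1 limit, at -1.0075 in the innervated limb. It stayed in the set in 24 of the 32 leave-one-out choices, the fewest of the 51 genes. Its uninjured arrays read 6.87, 6.80, 7.22 and 6.85 in the limb, and on day 1 the innervated limb read 6.31, 5.81, 5.85 and 5.74. On day 3 it was at 6.84, 6.60, 6.73 and 6.52 in the innervated limb and 6.80, 6.85, 6.60 and 6.66 in the denervated limb, both overlapping day 0. FLCN was within 0.2 of day 0 in both limb series, at -0.18 and 0.00. In the flank it was -0.48 ± 0.14 (adjusted p = 0.00969 by limma), a call lost without replicate 1 of flank day 0 (adjusted p = 0.0543). On a list of 40 genes of mTORC1 and its lysosomal regulators, made after the 51 were known, 25 were measured and 6 are among the 51. GPR137B is read on that list by another, brighter probe set than the one that met the limits (-1.45, -1.52 and -0.97 on day 1). On day 1, 15 fell and 3 rose in each limb series, and 13 fell and 4 rose in the flank. Of the 19 others, 9, 9 and 7 fell and 3, 3 and 4 rose. Among all probe sets 36%, 34.2% and 41.3% were called in either direction, and the share that fell is not given here. RPS6KB1, the kinase through which mTORC1 drives protein synthesis, rose by 1.38, 1.55 and 1.41 (adjusted p = 4.48e-09, 3.64e-10 and 2.07e-09), and it was chosen for this after its values were seen. DDIT4, an mTORC1 inhibitor also chosen so, rose by 2.98, 3.215 and 3.19 (adjusted p = 1.41e-07, 3.38e-08 and 3.32e-08 by limma). MTOR itself changed by -0.555, -0.44 and -0.74 (adjusted p = 0.000198, 0.00275 and 2.35e-06 by limma). The activity of mTORC1 was not tested.

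The 8 genes of DNA replication and repair had day 3 medians of 0.12, 0.15 and -0.08 in innervated limb, denervated limb and flank. BARD1 is the partner of BRCA1, and ATRIP brings the checkpoint kinase ATR to exposed single-stranded DNA. SMARCAL1 rewinds DNA at stalled forks, REV3L is the catalytic subunit of a polymerase that copies past damage, RFC1 loads the sliding clamp, and CDC7 is a kinase that fires replication origins. SMARCAD1 is a chromatin remodeller that promotes the resection of broken ends. BARD1 is an example. It read 8.42, 8.02, 8.04 and 7.99 in uninjured limb, 6.70, 6.68, 6.58 and 7.01 on day 1 and 8.27, 8.22, 8.15 and 8.34 on day 3 in the innervated limb, with days 0 and 3 overlapping.

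SMARCAD1 overshot at all 3 sites. Uninjured arrays read 9.79, 9.60, 9.71 and 9.45 in the limb and 9.68, 9.51, 9.50 and 9.64 in the flank. On day 3 they read 10.16, 9.98, 10.05 and 10.15 in the innervated limb, 10.11, 10.27, 9.86 and 9.99 in the denervated limb and 10.46, 10.01, 10.13 and 10.33 in the flank. No day 3 array fell within its day 0 group. The changes were 0.45 ± 0.13 (SE, n = 4 and 4, adjusted p = 0.00862 by limma), 0.42 ± 0.13 (0.0133) and 0.65 ± 0.13 (0.000187). The denervated call was lost without replicate 4 of innervated limb day 0 (adjusted p = 0.0593 by limma) or replicate 2 of denervated limb day 3 (0.0651). A second probe set of SMARCAD1, with a mean of 7.32, did not dip on day 1 (0.32, -0.16 and 0.44) but was as high on day 3 (0.45, 0.43 and 0.89).

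On a list of 61 genes of replication stress and repair, made after the 51 were known, 49 were measured and all 8 are on it. On day 1, 25 fell and 2 rose in each limb series, and 26 fell and 2 rose in the flank. The 8 fell by selection. Of the 41 others 17, 17 and 18 fell and 2, 2 and 2 rose. Among all probe sets 36%, 34.2% and 41.3% were called in either direction on day 1, and the share that fell is not given here. On day 3, 8 of the 49 were above and 6 below day 0 in the innervated limb, 6 above and 1 below in the denervated limb, and 5 above and 7 below in the flank. Of all probe sets, 12.5%, 12.4% and 12.6% were called above day 0 and 13.4%, 14.1% and 14.8% below. ATR, chosen after its values were seen because ATRIP is its partner, fell on day 1 (-1.47, -1.35 and -2.23; adjusted p = 1.77e-08, 9.98e-08 and 9.35e-13 by limma). Other genes of this kind went up on day 1: RAD1 rose by 1.78, 1.70 and 1.65 and ETAA1 by 0.72, 0.50 and 1.08.

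**Figure D4:**
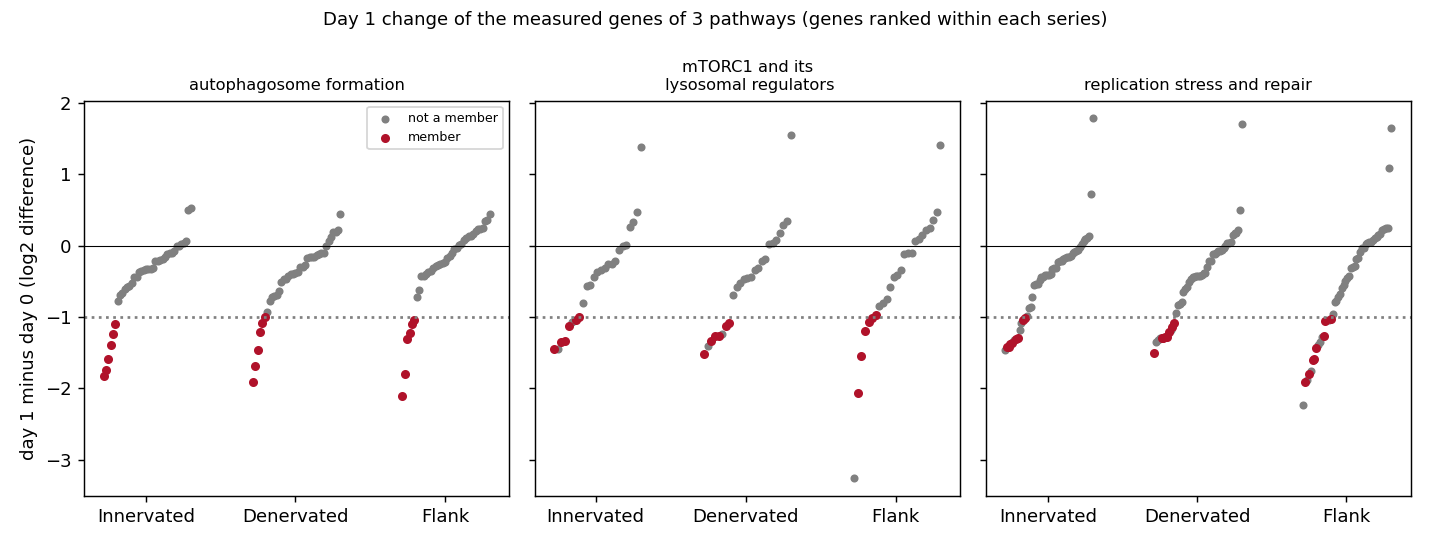
Day 1 minus day 0 (vertical axis, log2 difference of group means) of the measured genes of 3 pathways, ranked within each series from lowest to highest (horizontal axis). Red points are genes of the set, which lie at or below the dotted line at -1 by selection, except GPR137B at -0.97 in the flank, whose probe set here is not the one that met the limits. Grey points are the other measured genes: 32 for autophagosome formation, 19 for mTORC1 and its lysosomal regulators and 41 for replication stress and repair.

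The largest overshoot in the limb was that of a chromatin gene. BRWD3, a bromodomain and WD-repeat protein, read 6.81, 6.30, 6.07 and 6.22 in uninjured limb, 4.94, 4.71, 4.68 and 4.70 on day 1 and 7.38, 7.22, 7.44 and 7.23 on day 3 in the innervated limb. In the denervated limb it read 7.52, 7.38, 6.98 and 7.16 on day 3. Both day 3 groups were wholly above day 0, by 1.96-fold (0.97 ± 0.20, SE, n = 4 and 4, adjusted p = 0.000206 by limma) and 1.88-fold (0.91 ± 0.20, 0.000403), and both calls were kept whichever array was left out. In the flank 6.94, 6.79, 6.21 and 6.50 became 6.83, 6.57, 6.95 and 6.90, an overlap (0.20 ± 0.20, adjusted p = 0.498). The difference of these changes between innervated limb and flank did not pass the test (0.77 ± 0.28, adjusted p = 0.129).

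TDRD3, which reads methylated arginines and works with topoisomerase TOP3B, also overshot in the limb. It read 7.38, 6.84, 7.40 and 7.36 in uninjured limb, and on day 3 8.02, 7.60, 8.10 and 7.60 in the innervated limb and 7.88, 8.13, 7.92 and 7.95 in the denervated limb, with no overlap with day 0. The change was 0.59 ± 0.18 (SE, n = 4 and 4, adjusted p = 0.0108 by limma) and 0.73 ± 0.18 (0.00148). The first call was lost without replicate 2 of innervated limb day 0 (adjusted p = 0.0727 by limma) or replicate 3 of innervated limb day 3 (0.0528). In the flank the TDRD3 change was 0.13. The differences of change against the flank, 0.45 innervated and 0.59 denervated, were not called. ZMYND8, a chromatin reader, was above day 0 by 0.53 in the innervated limb, 0.55 in the denervated limb and 0.64 in the flank, and a brighter probe set of the gene, with a mean of 7.18, was above by 0.44, 0.45 and 0.69 with day 1 changes of -0.37, -0.38 and 0.07. THAP5, a zinc finger protein, stood at -0.44, -0.39 and -0.40.

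The other roles held genes that were still below day 0 in the flank on day 3. The 4 genes of ubiquitin and SUMO conjugation had day 3 medians of -0.27, -0.22 and -0.41, and the 5 of mitochondria and metabolism -0.18, -0.18 and -0.53. RMND5A, a subunit of the CTLH ubiquitin ligase, was at 8.79, 8.84, 8.93 and 8.42 in the flank on day 3 against 9.31, 9.36, 9.12 and 9.29 before injury. KLHL15, which brings substrates to a cullin 3 ubiquitin ligase, was at 8.02, 8.02, 8.20 and 8.04 against 8.81, 8.23, 8.52 and 8.65. Neither gene's groups overlapped, and the changes were -0.53 ± 0.15 (SE, n = 4 and 4, adjusted p = 0.00593 by limma) and -0.48 ± 0.11 (0.00106). UCP2, a carrier of the inner mitochondrial membrane and the brightest of the 51, read 12.16, 12.58, 12.40 and 12.52 in uninjured flank and 11.93, 11.75, 11.91 and 11.70 on day 3 (-0.59 ± 0.15, adjusted p = 0.00197). All 3 calls were kept whichever array was left out, but they are descriptions, since the day 0 arrays entered the choice. The 3 genes were below day 0 in the innervated and denervated limb as well. RMND5A stood at -0.36 and -0.22 there, KLHL15 at -0.325 and -0.26 and UCP2 at -0.26 and -0.37. KLHL15 was also called in the innervated limb, a call lost in 5 of 15 alternatives. None of the 3 was called for a difference of change between limb and flank. UCP2 was above its day 0 level on day 7, by 0.62, 1.10 and 0.51 in innervated limb, denervated limb and flank.

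Of the surface proteins, TMPRSS2, a membrane serine protease, had the widest spread between series on day 3. It read 7.14, 5.89, 6.08 and 6.52 in uninjured flank and 5.55, 5.61, 5.81 and 5.0 on day 3, without overlap (-0.92 ± 0.33, SE, n = 4 and 4, adjusted p = 0.0323 by limma). That call was lost without replicate 1 (adjusted p = 0.159 by limma) or 4 (0.0712) of flank day 0 or replicate 1 (0.0521) or 4 (0.121) of flank day 3. It is a description, since the day 0 arrays entered the choice. In the limb 5.49, 5.54, 6.65 and 5.62 became 6.88, 5.77, 6.43 and 6.53 in the denervated series, an overlap. The difference of the changes did not pass the test (1.49 ± 0.46, adjusted p = 0.0576). TNFSF10 (TRAIL), a ligand that induces apoptosis, was variable: uninjured limb arrays read 7.48, 8.38, 8.42 and 8.86 and flank arrays of day 1 6.27, 7.63, 7.85 and 7.04. A second TNFSF10 probe set, with a mean of 6.66, did not dip (0.44, 0.14 and 0.19 on day 1).

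Counted over the 51 genes, 12 were called on day 3 against day 0 in the innervated limb, 6 above and 6 below, where 25.9% of all probe sets were called, 12.5% above and 13.4% below. In the denervated limb 11 were called, 7 above and 4 below, against 26.4% (12.4% and 14.1%). In the flank 17 were called, 2 above and 15 below, against 27.4% (12.6% and 14.8%). The day 0 arrays also entered the choice, so these counts are descriptions. The shares of the 51, 23.5%, 21.6% and 33.3%, were near the shares of all probe sets, but the 15 below in the flank made 29.4% of the 51. The flank count rested on single arrays: it was 8 without replicate 1 of flank day 0 and 10 without replicate 4 of flank day 3. The denervated count was 7 without replicate 4 of innervated limb day 0. Calls kept whichever single array was left out numbered 7 of 12, 7 of 11 and 8 of 17, and the 7 lower ones in the flank were C9orf72, GPATCH1, KLHL15, RMND5A, SERAC1, UCP2 and UVRAG.

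In 34 of the 51 genes (66.7%) the flank's change from day 0 on day 3 was lower than that of both limb series. Among all probe sets the share was 36%. The day 0 arrays also entered the choice of the 51 genes, and both limb series share the same day 0 arrays. The 51 genes also varied together from array to array, so they are not independent observations. The contrast of these shares is therefore a description and was not tested. The mean level over the 51 genes was 7.85 to 8.20 on the uninjured flank arrays and 7.70 to 8.04 on the uninjured limb arrays, while on day 3 it was 7.69 to 7.93 in the flank, 7.70 to 7.95 in the innervated limb and 7.86 to 7.96 in the denervated limb. The median difference of the 51 genes between innervated limb and flank was -0.12 on day 0 and 0.04 on day 3. Below day 0 by more than 0.4 in the flank alone were 7 genes: UCP2, RMND5A, KLHL15, SERAC1, FLCN, GPATCH1 and TMPRSS2. Above by more than 0.4 in both limb series and not in the flank were 4: HELQ, TDRD3, SLC38A9 and BRWD3. Of these 4 only HELQ was called for a difference of change between limb and flank, and of the 7 none was.

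**Figure D5:**
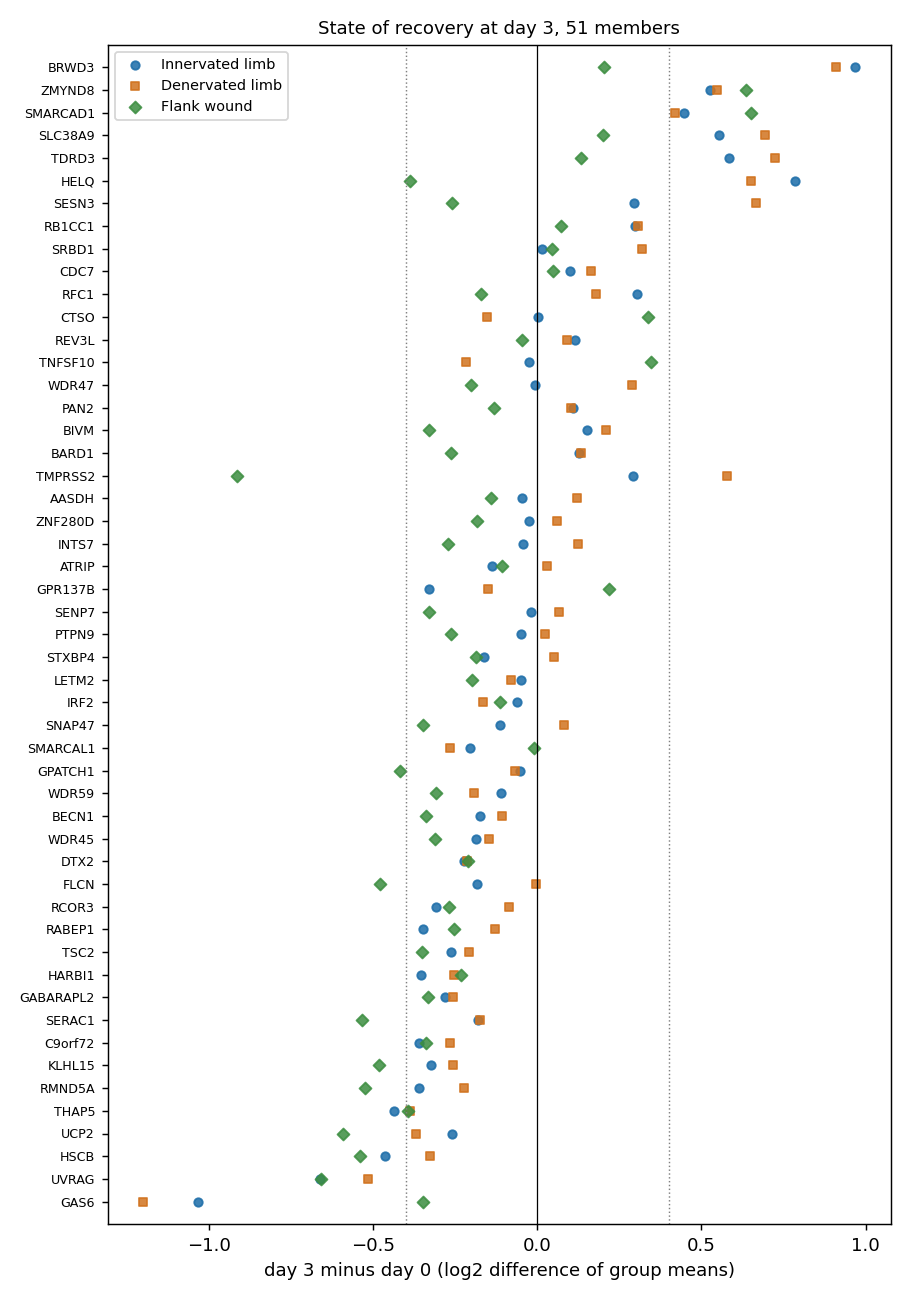
Day 3 minus day 0 (horizontal axis, log2 difference of group means, 4 arrays each) for each of the 51 genes (vertical axis), ordered by their mean over the 3 series. Circles are the innervated limb, squares the denervated limb and diamonds the flank wound, and dotted lines mark 0.4 on either side of 0. Limb markers of GAS6 stand alone at -1.03 and -1.20, and the flank marker of TMPRSS2 at -0.92.

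The 51 genes also varied together from array to array within a group. After each group's mean was removed, the correlation over the 44 arrays between pairs of the genes had a median of 0.26 (1275 pairs, -0.40 to 0.79), beside 0.0057 over pairs of the 8639 named genes. The named genes were not matched in level to the 51, which all lay in the upper part of the array's range. The arrays of a gene pair are shared, so this is a description. Other probe sets exist for 15 of the 51 genes, 36 in all, and they did not always show the dip. Those of IRF2 (-1.43, -1.26 and -1.92) and CDC7 (-1.02, -0.71 and -1.41) were low on day 1, whereas that of RCOR3 was above day 0 (0.88, 0.99 and 0.99) and the many probe sets named HARBI1 pointed in both directions. The other probe sets of TSC2 were dim (means 3.48 to 3.70) and did not dip, with day 1 changes from -0.24 to 0.27. That of RB1CC1, with a mean of 3.56, did not dip either (0.11, 0.12 and 0.14). GAS6, HELQ, INTS7, SESN3, UVRAG, C9orf72 and BRWD3 had a single probe set each.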

How the data were processed

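The deposited values were log2 expression per probe set of 44 one-colour Affymetrix arrays of a design made for the axolotl, and they came from the authors already on that scale with 2 decimals. RMA and limma are named, per the submitters' processing notes, with no role for either, so how arrays were normalized or centred is not given in the sources used here. Array medians lay between 5.61 and 5.72. Of 20080 probe sets, 45 controls were left out and 20035 were fitted, with no further normalization, floor or filter. Symbols came from the platform annotation, and all 51 were found in the RefSeq gene table of assembly UKY_AmexF1_1. Each group had 4 arrays. limma 3.58.1 in R 4.3.3 fitted 1 mean per group over all arrays (33 residual degrees of freedom) with empirical Bayes moderation, and tests were two-sided with Benjamini-Hochberg adjustment over all 20035 probe sets, called under 0.05. The fit was tested on simulated data. Genes were named where they were among the largest called differences, the deepest or the extreme recoveries, near a limit, on a gene list, within a role group or read by disagreeing probe sets. The genes, lists and rules were chosen with earlier results of these data known. The alternatives tried were other array scalings, quantile normalization, array weights, fits on fewer groups, a replicate block, a filter on dim probe sets, other limits, and leaving out arrays. Same-numbered arrays of different groups correlated with a median of 0.038 in their deviations (-0.34 to 0.45), beside -0.012 for differently numbered arrays. These medians cannot settle whether same-numbered arrays share an animal or a batch. No scan date or batch is given in the labels. Sequences and coordinates are not used here.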

Additional observations from a re-analysis of the deposited data

Results flagged for a closer look

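The change from day 0 to day 3 differed between sites by a test of the difference itself for GAS6 (-0.69 in innervated limb against flank and -0.85 in denervated limb against flank), for HELQ (1.17 and 1.04) and for SESN3 (0.93 in denervated limb against flank). The day 0 arrays of these tests also entered the choice. The innervated GAS6 call and the SESN3 call were each lost in 10 of 23 alternatives.

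Within groups of 4 arrays, a single array stood far from the other 3 in 15 of the 209 groups of values examined, where chance gives about 1 in 20. Before injury these were, in the flank, BECN1 at 8.23, GABARAPL2 at 11.04 and TNFSF10 at 8.92, and in the limb TSC2 at 7.22, BARD1 at 8.42, TDRD3 at 6.84 and TMPRSS2 at 6.65. On day 1 they were, in the innervated limb, the mean level of the 51 genes at 6.43, SESN3 at 8.57 and BRWD3 at 4.94, and in the flank BECN1 at 5.38 and TDRD3 at 6.21. On day 3 in the innervated limb they were UVRAG at 7.61 and GABARAPL2 at 11.06, and on day 7 in the denervated limb TMPRSS2 at 7.68.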

How the results depend on the processing

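Of 820 values of the called genes in 10 comparisons under alternatives, none changed direction, 682 kept their side of the threshold and 138 lost the call. Genes not called were not followed one by one. GAS6 and HELQ between innervated limb and flank on day 3, and GAS6 between denervated limb and flank, kept their calls in all 15 alternatives. With the replicate number as a block, the 10 counts of called genes were 0, 2, 3, 12, 11, 17, 2, 3, 0 and 2 (in the order below), equal to those without it. The genes were the same in 9 comparisons. Between denervated limb and flank on day 3, HELQ lost its call (adjusted p = 0.051 by limma) and CTSO gained 1 (0.0464). Same-numbered arrays are not known to be paired.

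Leaving out each array in turn gave 0 to 0 genes called on day 3 between innervated and denervated limb, 2 to 2 between innervated limb and flank and 1 to 3 between denervated limb and flank. Against day 0 the counts on day 3 were 10 to 12 in the innervated limb, 7 to 13 in the denervated limb and 8 to 17 in the flank. In the change from day 0 against that in the flank they were 1 to 2 (innervated) and 2 to 5 (denervated, 5 without replicate 3 of innervated limb day 0). They were 0 to 2 between the limbs on day 7 and 1 to 4 between limb and flank on day 0. The number of genes in the set was 47 to 59, and the medians on day 3 were -0.12 to -0.005 (innervated), -0.10 to 0.028 (denervated, the lowest without replicate 2 of innervated limb day 0) and -0.31 to -0.19 (flank).

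Fits on the compared groups alone called 1 gene between denervated limb and flank on day 3, 1 in the innervated change against flank and 0 at day 0. The count between the limbs on day 7 was 3 after quantile normalization, 5 with array weights and 2 without the dimmest 25% of probe sets, and the count at day 0 was 1 after quantile normalization. The set held 8 genes at a day 1 limit of -1.5, 135 at -0.8, 24 at a day 7 limit of -0.2 and 77 at -0.6. With the 8 genes, 1 was called between each limb series and the flank on day 3, 2 against day 0 in each series, 1 in each difference of changes and 0 at day 0, with limb medians of -0.24 and -0.13. With the 24 genes, 7 were called in the innervated limb and 5 in the flank against day 0 and 1 at day 0, with limb medians of 0.065 and 0.11, so the median limb gene was above or below day 0 according to the limit. Requiring a difference of at least 0.5 left 1 gene between denervated limb and flank, 6, 7 and 7 against day 0 in innervated limb, denervated limb and flank, and 1 at day 0.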

Other observations

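The 51 probe sets without a gene symbol that met the same limits had median changes from day 0 to day 3 of -0.19 in the innervated limb, -0.10 in the denervated limb and -0.29 in the flank.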
